A study of Mus musculus with 2 samples.

Results

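Expressed retained-intron transcripts are the subject here: annotated transcripts of the class retained_intron, from genes that also have a protein_coding transcript, present in aged mouse hippocampus. They were chosen by their class in the annotation and by a level of at least 1 TPM, an abundance corrected for transcript length and scaled to a fixed total per library, in both libraries. Of 141767 transcripts in both deposited transcript tables, 21848 were of the class retained_intron, 21421 of these belonged to genes with a protein_coding transcript, and 5766 of those reached the minimum. These 5766 transcripts came from 3359 genes, among 32370 transcripts of any class that reached it. Because the levels in the first table chose them, those levels are given as a description and support nothing.

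Total RNA was sequenced from hippocampal tissue of male B6CASTF1/J mice, the F1 hybrid of C57BL/6J and CAST/EiJ, at 18 to 20 months of age, from 300 ng of RNA per library with ERCC spike-ins. There was 1 group of 2 libraries, replicate 1 and replicate 2, with no treatment and no second genotype. The labels call the libraries biological replicates from distinct tissue samples but list the same donor for both. Whether they stem from different mice is thus not settled, and their spread may be partly technical. The libraries also differ in choroid plexus genes, with values given below, and what this adds to their spread was not tested. F1 animals carry a CAST/EiJ allele of each autosomal gene, whose reads may align less well to mm10. With 1 group there is no test, and differences between the libraries are given with both values.

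An intron is removed from a precursor RNA by the spliceosome, which reads the 5′ splice site, the branch point and the 3′ splice site. When an intron stays in an otherwise processed RNA, the transcript can remain in the nucleus, can be spliced later, or can reach the cytoplasm, where an early stop codon often leads to nonsense-mediated decay. Retained introns are known to be common in neurons and in genes for splicing factors, many of which control their own level this way. The annotation class retained_intron is wider than that: it holds any transcript without an assigned reading frame whose sequence runs into an intron of a coding transcript. In total RNA, unspliced precursor RNA in the nucleus, a stable transcript that keeps an intron, and a transcript that ends inside one cannot be told apart in these tables, nor can more cells from more RNA per cell.

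The sequences that follow are kept introns as annotated, from transcripts that reached the minimum, and reads over them were not inspected. They are short introns that lie whole inside an exon of a retained-intron transcript, between coding exons of the same gene. They were picked from named transcripts, the first 6 because such a transcript held a large part of its gene in both tables, the other 3 because the tables differed on it or because it keeps several introns. Each is read from the GENCODE M21 transcript, 5′ to 3′ on the strand of the gene, with 10 exon bases on either side. Capitals mark the first 6 and the last 3 intron bases, which are the splice sites, and the first stop codon in the reading frame of the upstream coding exon. Coordinates are those of the intron in mm10. They are chr2:130564228-130564307 on the plus strand for Mrps26-201, chr13:55324445-55324526 on the plus strand for Prelid1-202, chr8:105690920-105691082 on the plus strand for Carmil2-201, chr17:25184641-25184719 on the plus strand for BC003965-202, chr1:86352320-86352509 on the minus strand for Ncl-202 and chr15:89474710-89474786 on the minus strand for Arsa-201. The others are at chr7:28352274-28352362 on the plus strand for Rps16-202, chr11:102196118-102196237 on the minus strand for Hdac5-211 and chr7:45170489-45170659 on the plus strand for Slc17a7-203.
Mrps26-201: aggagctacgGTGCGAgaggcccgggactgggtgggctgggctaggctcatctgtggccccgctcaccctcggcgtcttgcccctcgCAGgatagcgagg
Prelid1-202: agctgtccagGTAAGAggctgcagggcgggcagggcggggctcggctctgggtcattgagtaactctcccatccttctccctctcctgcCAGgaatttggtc
Carmil2-201: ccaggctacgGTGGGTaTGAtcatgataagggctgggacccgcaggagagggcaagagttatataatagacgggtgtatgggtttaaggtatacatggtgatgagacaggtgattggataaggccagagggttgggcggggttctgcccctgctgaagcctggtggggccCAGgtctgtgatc
BC003965-202: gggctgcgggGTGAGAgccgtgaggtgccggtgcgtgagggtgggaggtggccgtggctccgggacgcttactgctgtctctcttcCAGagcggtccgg
Ncl-202: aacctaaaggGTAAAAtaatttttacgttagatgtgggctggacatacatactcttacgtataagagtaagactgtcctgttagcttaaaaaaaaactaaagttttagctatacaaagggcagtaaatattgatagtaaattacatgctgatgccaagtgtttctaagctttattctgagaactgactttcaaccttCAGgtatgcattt
Arsa-201: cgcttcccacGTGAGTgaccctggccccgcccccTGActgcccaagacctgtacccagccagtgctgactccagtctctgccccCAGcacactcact
Rps16-202: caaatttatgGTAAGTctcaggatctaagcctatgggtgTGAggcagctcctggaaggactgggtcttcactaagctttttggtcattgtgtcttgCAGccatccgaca
Hdac5-211: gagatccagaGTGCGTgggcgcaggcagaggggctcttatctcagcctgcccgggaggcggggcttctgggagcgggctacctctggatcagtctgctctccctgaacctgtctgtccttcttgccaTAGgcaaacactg
Slc17a7-203: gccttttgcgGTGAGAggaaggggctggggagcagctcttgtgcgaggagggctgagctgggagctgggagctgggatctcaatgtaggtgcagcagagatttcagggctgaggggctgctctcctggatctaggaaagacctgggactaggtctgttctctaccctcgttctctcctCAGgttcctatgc

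The introns of Mrps26-201 and Prelid1-202 are 80 and 82 bases long and hold no stop codon in frame, but their lengths are no multiple of 3, so reading through them shifts the frame. In BC003965-202 and Ncl-202 the stop begins at intron base 2, inside the 5′ splice site itself. In Carmil2-201, Arsa-201 and Rps16-202 it begins at bases 8, 25 and 30. The 120 bases of Hdac5-211 are a multiple of 3 with no stop in frame, so the reading frame passes through the intron. The 171 bases of the intron shown for Slc17a7-203, intron 6 of 12, are also a multiple of 3 without a stop. Base composition of the printed introns ranged from 32.6% G or C in Ncl-202 to 72.5% in Mrps26-201.

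As a check of the tissue, the summed TPM of 7 genes of hippocampal excitatory neurons was 2820 in replicate 1 and 2865 in replicate 2, and the genes ranged from 28.4 to 1429 TPM. Sums for 5 oligodendrocyte genes were 1271 and 1241 TPM, and for 5 astrocyte genes 1393 and 1429 TPM. The 6 choroid plexus genes summed to 36.2 TPM in replicate 1 and 695 TPM in replicate 2, mostly Ttr, and none of the 6 has an expressed retained-intron transcript. Expected counts over transcripts came to 34563482 in replicate 1 and 32370292 in replicate 2. The 5766 transcripts took 2.29% and 2.13% of them and 2.57% and 2.50% of all TPM. Their median expected count was 62.0 in replicate 1 and 54.0 in replicate 2, and 170 of them, 2.95%, had fewer than 10 counts in at least 1 library.

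Most of these transcripts were scarce, and a few were abundant. The median level was 2.38 TPM in replicate 1 (quartiles 1.61 and 4.06) and 2.19 TPM in replicate 2 (quartiles 1.48 and 3.77). In both libraries 879 of them reached 5 TPM, 358 reached 10 TPM and 38 reached 50 TPM. The 20 most abundant held 9.19% of their summed TPM, and 706 together held 50%. At the minimum itself, Rab14-209 and Tsga10-205 were inside with 1 TPM in both libraries and Ergic2-204 with 1 and 1.03 TPM. Adam23-206 was outside with 0.99 TPM in both, Atg4d-202 with 0.99 and 1.02 TPM, and Myt1l-206 with 1.03 and 0.99 TPM. Another 2350 retained_intron transcripts reached the minimum in a single library, and 2947 were listed at 0 in both.

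The share of the gene is the percent of the gene's TPM, summed over its transcripts, that falls to 1 transcript. In the genes concerned, the retained-intron transcripts together held 12.9% of the TPM in replicate 1 and 12.1% in replicate 2, and protein_coding transcripts held 77.5% and 78.6%. The second table gave 12.8% and 12.1% for the same transcripts. A single retained-intron transcript held a median of 7.60% and 7.03% of its gene in the 2 libraries, while an expressed protein_coding transcript of the same genes held 22.7% and 23.1%. In the second table the medians were 6.07% and 5.46%. Summed per gene, the median over 3359 genes was 13.6% in the first table and 11.3% in the second.

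Large shares were rare. In both libraries 1902 transcripts, 33.0%, held at least 10% of their gene, 685 held at least 20% and 70 held at least 50%. Requiring the same share in the second table as well left 1209, 379 and 26. A retained-intron transcript was the most abundant transcript of its gene in both libraries for 198 in the first table and 190 in the second, and for 79 in both tables. Summed per gene, 159 of 3359 genes had at least 50% of their TPM in such transcripts in both libraries.

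Mrps26-201 had one of the larger shares in both tables. Its gene encodes a protein of the small subunit of the mitochondrial ribosome, and the retained-intron transcript lies at chr2:130563742-130565394. It stood at 29.5 and 30.99 TPM in the 2 libraries, or 92.3% ± 0.75 (SD, n = 2) of the gene, and the second table gave 92.8% and 93.3%. Both libraries and both tables thus put more than 90% of Mrps26 in the form with its second intron of 3. It overlaps an exon of another gene on the opposite strand, and the sources used here do not state for each table whether counting used strand.

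Prelid1-202, from the gene of a carrier of phosphatidic acid between the mitochondrial membranes, stood at 54.0 and 59.2 TPM. That was 91.4% ± 0.48 (SD, n = 2) of its gene, and 77.3% and 74.1% in the second table. Carmil2-201, from the gene of a regulator of actin filament capping, held 75.02% and 80.65% in the first table and 79.7% and 84.2% in the second. BC003965-202 held 73.0% and 81.1% in the first and 100% in both libraries of the second, at 5.59 and 6.05 TPM. These 3 transcripts have 82, 163 and 79 bases outside coding exons and Mrps26-201 has 80, so each share rests on a short stretch. Prelid1-202 and Carmil2-201 also overlap an exon of another gene on the opposite strand. Arsa-201, from the gene of a lysosomal sulfatase, stood at 7.34 and 8.85 TPM and held 66.4% and 72.1%, then 42.0% and 50.9% in the second table, with 77 bases outside coding exons.

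Longer kept introns gave large shares too. Ncl-202, from the gene of nucleolin, an abundant nucleolar protein of ribosome assembly, keeps introns 9 and 10 of 13, which are 492 and 190 bases long. It stood at 38.1 and 37.6 TPM, 67.8% ± 1.82 (SD, n = 2) of the gene in the first table and 57.3% and 55.9% in the second. Dok3-203, from the gene of an adaptor protein of immune cell signalling, keeps 811 bases of intron and held 65.8% and 71.9%, then 80.8% and 90.4%. Daam2-203, from the gene of a formin that acts in Wnt signalling, keeps introns 15 and 16 of 25. It held 51.4% and 48.2% of its gene in the first table and 50.4% and 48.8% in the second, with 5293 of its 31-base words found in no other transcript. Arglu1-204, from the gene of a nuclear protein that acts in splicing, keeps 2280 bases and held 51.8% and 48.4%, then 40.9% and 39.1%. Slc25a37-203, from the gene of mitoferrin, the iron importer of mitochondria, keeps 1756 bases and held 49.2% and 48.9%, then 69.7% and 61.3%, and it overlaps an exon on the opposite strand.

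Other transcripts with large shares in both tables were built differently. Syne1-207 is a transcript of 5412 bases from the gene of nesprin-1, a large protein of the nuclear envelope. It stood at 62.1 and 60.95 TPM and held 50.3% and 51.3% of the gene, then 55.8% and 56.8% in the second table. It keeps an intron of 1891 bases, both of its ends lie in introns, and 182 of its bases lie outside every coding exon. Ankib1-204 held 60.6% and 57.6%, then 65.5% and 63.3%. Mrpl57-202, from the gene of a protein of the large subunit of the mitochondrial ribosome, has a single exon of 519 bases with 79 outside coding exons, and it held 84.8% and 86.9%, then 85.6% and 87.5%. These 3 transcripts and those of the preceding paragraphs were picked after their values in both tables had been seen.

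The 20 most abundant transcripts were of another make. Their median length was 543 bases, and a median of 90 of those bases lay inside introns and outside every coding exon, and at most 297 did. Their levels were close between the libraries in the first table, but 7 of the 20 were listed at 0 in both libraries of the second, and 11 of the 20 had at least 1 TPM there in both. Cytosolic ribosomal protein genes gave 7 of the 20, and such genes are known to have near-identical copies elsewhere in the genome. How far reads were split between copies was not tested, and these levels are uncertain.

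**Figure D1:**
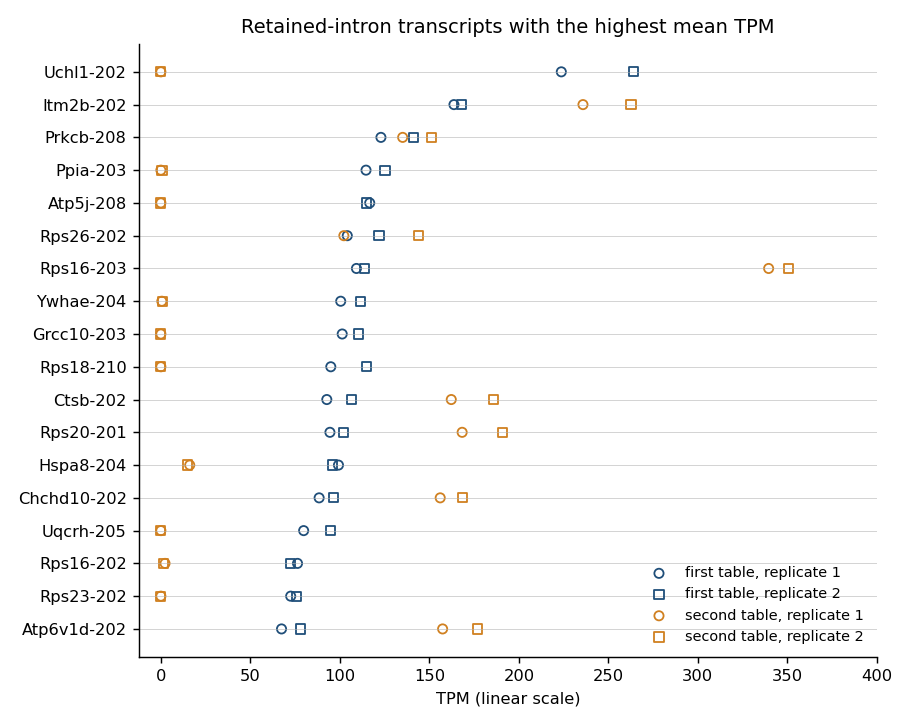
TPM of 18 of the 20 retained-intron transcripts with the highest mean TPM in the first table. Circles stand for replicate 1 and squares for replicate 2, blue for the first table and orange for the second, on a linear scale. Second-table values are shown unscaled, and the median TPM ratio over all transcripts was higher there. The blue pairs lie close together in each row, while the orange pairs lie at or near 0 for transcripts such as Uchl1-202 and Atp5j-208 and to the right of the blue for Itm2b-202 and Rps16-203.

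Uchl1-202 had the highest level. Uchl1 encodes a ubiquitin hydrolase that is abundant in neurons, and the transcript, at chr5:66676892-66687229, is 980 bases long, of which 52 are intronic. The first table gave 224 TPM in replicate 1 and 264 TPM in replicate 2, 67.7% and 69.4% of the gene, from 4946 and 5364 expected counts. The second table listed it at 0 in both libraries. The authors' credibility interval, whose level is not stated, ran from 207 to 230 TPM in replicate 1, so the distance between the tables is outside what the first table gives as its own uncertainty.

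Itm2b-202, from the gene of a membrane protein known for its part in familial dementias, stood at 164 and 168 TPM in the first table and 236 and 263 TPM in the second. Its share was 39.6% ± 0.13 (SD, n = 2) in the first and 26.8% and 28.7% in the second. Prkcb-208, from the gene of a protein kinase C isoform, is a single exon of 955 bases, 297 of them intronic. It stood at 123 and 141 TPM in the first table and 135 and 151 TPM in the second, and held 40.1% and 42.8% of the gene, then 31.1% and 33.1%. Ctsb-202, from the gene of a lysosomal protease, held 57.6% and 59.02%, then 61.7% and 63.3%. TPM ran higher in the second table over all transcripts, as given below. After division by that median ratio, the second table stood at 0.992 times the first for Itm2b-202, 0.716 times for Prkcb-208 and 1.15 times for Ctsb-202. In these 3 genes both tables put the transcript among the main forms.

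In Rps16 the tables differed on both of its retained-intron transcripts. Rps16-203, with 68 intronic bases at its end, held 57.6% and 59.1% in the first table and 82.2% and 82.8% in the second. Rps16-202, with the 89-base intron printed above, held 40.3% and 37.7% in the first and 0.563% and 0.373% in the second. The sum over both was 97.9% and 96.8% in the first table and 82.8% and 83.1% in the second. Atp5j-208, from a gene of the ATP synthase, went further: it held 81.5% and 79.3% in the first table and was listed at 0 in the second.

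In the first table the libraries gave like levels, though the minimum in both of them limits how far apart low levels can lie. Of the 5766 transcripts, 269, or 4.67%, differed at least 2-fold in TPM between the libraries, beside 4.25% of all 32370 transcripts at the minimum, so this is near the background. By second-table TPM, 721 of the same transcripts did, and in the first table with a pseudocount of 1, 63, with no background given for either. Spearman's rho between the libraries was 0.837 over the 5766 transcripts and 0.944 over the 32370. These are descriptions over transcripts that share genes and libraries. The median log2 ratio of replicate 2 to replicate 1 was -0.10 for retained-intron transcripts and 0.06 for protein_coding ones, and 168 of the 269 were higher in replicate 1, beside 692 of 1377 among all transcripts. What lies behind this offset was not tested.

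The transcripts that differed had few reads. Their median expected count was 33.8, against 60.8 for the rest, and the median of the authors' posterior SD was 32.9% of the count, against 13.7%. Of the 269, 58 also differed at least 2-fold in the same direction in the second table, and 1 had a 2-fold difference in the TPM of its gene. No share over all transcripts is given for these counts, so they are not read as particular to retained-intron transcripts. Among 879 transcripts at 5 TPM or more in both libraries, 2 differed at least 2-fold. Suds3-204, 215 bases long, had 15.98 TPM in replicate 1 and 2.80 TPM in replicate 2 on 46.5 and 7.50 counts, and was listed at 0 in the second table. Metap2-213 went the other way, with 2.29 and 16.1 TPM on 13.3 and 86.2 counts, and 0.680 and 0 TPM in the second table. Arpp21-222, from the gene of a neuronal RNA-binding protein, had 9.68 and 2.12 TPM in the first table but 26.8 and 23.2 TPM in the second, where the libraries lay close.

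**Figure D2:**
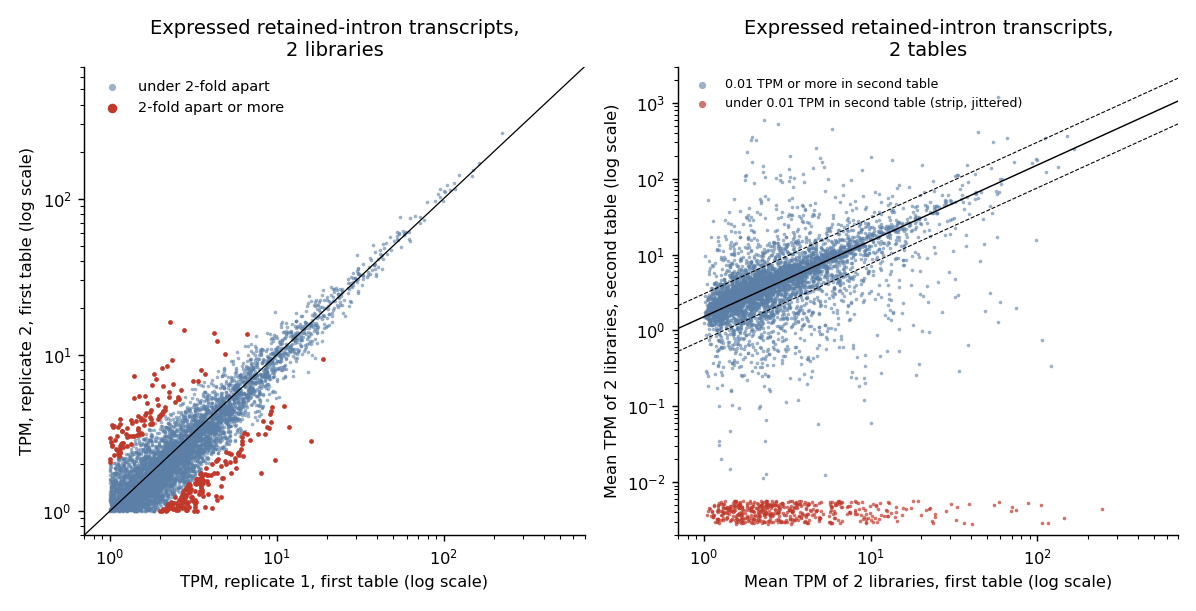
Each point is 1 of the 5766 retained-intron transcripts, on log scales. Left, TPM in replicate 1 against replicate 2 in the first table, with the line of equal values and the 269 transcripts at least 2-fold apart in red. Right, mean TPM in the first against the second table, with a solid line at the median ratio of all transcripts, dashed lines 2-fold from it, and 488 transcripts under 0.01 TPM in the second table in a red strip. The left cloud is narrow above 10 TPM, and the strip on the right reaches the highest levels.

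More of the 5766 transcripts lay over 2-fold apart between the tables than between the libraries of either table. The minimum was set on both libraries of the first table and limits how far apart low levels can lie there. Both start from the same reads: the first from an alignment to the transcriptome, the second from the reads and an index. TPM was higher in the second table by a median of 1.51-fold over all transcripts, a log2 ratio of 0.60, and the tables were compared after dividing by this factor. Of the 5766 transcripts, 4135, or 71.7%, then lay within 2-fold between the tables, beside 72.3% of all transcripts at the minimum. At least 1 TPM in both libraries of the second table was reached by 82.4%, beside 83.8%. For this minimum, here and below, second-table TPM was not divided by the factor, so it is easier to reach. A listing at 0 in both libraries of the second table was found for 449 transcripts, or 7.79%, beside 7.31%. Each of these shares is near its background, so the tables differed on retained-intron transcripts about as often as on transcripts in general. For protein_coding transcripts alone the shares were 76.7%, 87.5% and 4.58%.

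Rank order was less alike. Spearman's rho of TPM between the tables was 0.497 over the 5766 transcripts, 0.661 over all 32370 and 0.747 over 20820 protein_coding ones, and that of the share of the gene was 0.605, 0.805 and 0.815. The points share genes, reads and libraries. From the other side, 8220 retained_intron transcripts reached 1 TPM, without scaling, in both libraries of the second table. Of them, 4750, 57.8%, are among the 5766.

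Length and sequence of their own went with the differences. Of 47 transcripts up to 300 bases long, 46 were listed at 0 in the second table and none lay within 2-fold. Of those of 301 to 400 bases, 51.9% were listed at 0, and of those over 2000 bases, 0.789%. Protein_coding transcripts followed the same course, with 96.6% at 0 up to 300 bases, 74.9% at 301 to 400 bases and 0.808% over 2000 bases. Within 2-fold between the tables lay 41.0% of retained-intron transcripts of 401 to 500 bases and 91.3% of those over 2000 bases. For protein_coding transcripts these shares were 33.3% and 86.1%. In each length class over 300 bases the share within 2-fold was higher for retained-intron than for protein_coding transcripts. Whether length itself sets these shares was not tested.

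The other measure was the number of 31-base words of a transcript, on either strand, that no other annotated transcript holds. The median was 246 such words, 29.7% of the transcript's words, and 532 transcripts, 9.23%, had none. Of those with none, 49.4% lay within 2-fold between the tables and 15.8% were listed at 0 in the second. With 401 to 1000 own words, 92.7% lay within 2-fold, and with more than 1000, 98.2% did. None of the transcripts with more than 400 own words was listed at 0 in the second table. The authors' posterior SD, as a share of the count, fell along the same classes, from a median of 25.4% with no own words to 4.45% with more than 1000. The median share of the gene in the first table was 9.64% with no own words and 12.7% with 1 to 50. With more than 1000 it was 5.19%. In the second table the medians of these classes were 4.995%, 6.28% and 5.196%, and the highest of any class was 6.42%, with 201 to 400. In the first table shares were thus larger where a transcript had little sequence of its own, while the second table showed no such order of the classes. Because first-table levels chose the transcripts, nothing is concluded from this difference between the tables.

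**Figure D3:**
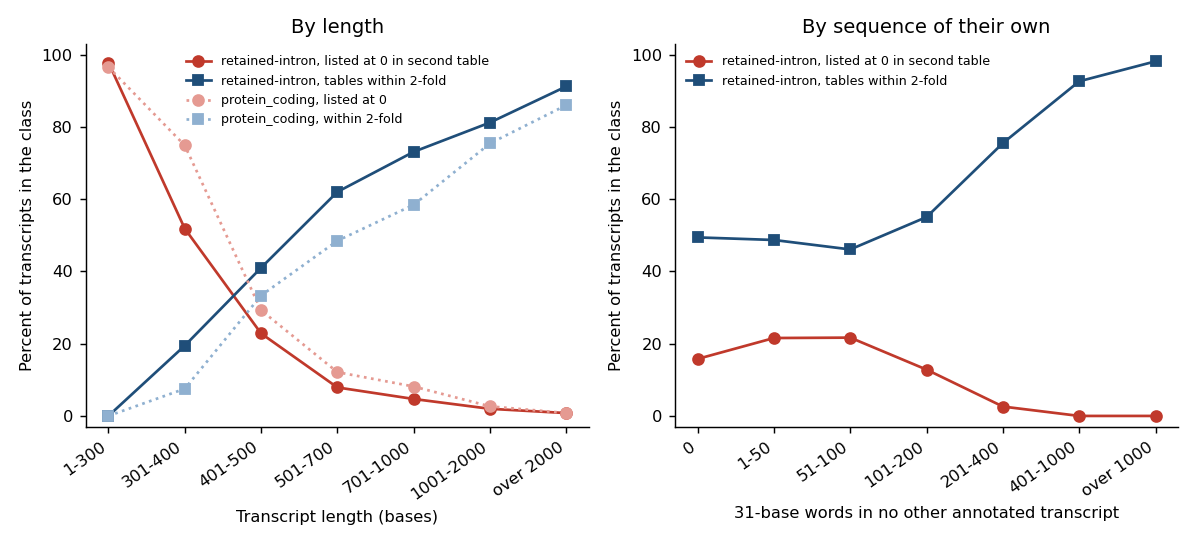
Percent of transcripts listed at 0 in both libraries of the second table (red) and within 2-fold between the tables (blue), by length on the left and by number of own 31-base words on the right. Solid lines are the retained-intron transcripts and dotted lines protein_coding transcripts at the same minimum, shown for length. On the left red falls from 97.9% to 0.789% while blue rises to 91.3%, and on the right blue rises from 49.4% to 98.2%.

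Taking the transcripts with at least 100 own words, at least 1 TPM in both libraries of the second table and tables within 2-fold left 3359 transcripts of 2393 genes. Their median share of the gene was 6.63% in the first table and 6.51% in the second. Of them, 16 held at least 50% in both tables and both libraries. The condition uses both tables, so their likeness is no finding.

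The largest ratios between the tables are bound to level by the way they were ranked. Levels under 0.01 TPM were set to 0.01, so among transcripts at 0 in the second table the highest in the first ranked first. A large rise from a low level likewise needs a gene of high level. That the genes named here stood high is thus no finding. Cox6a1-202, from a gene of cytochrome c oxidase, had 4.29 and 1.25 TPM in the first table, under 2% of the gene, and 519 and 539 TPM in the second, 94.9% and 94.2%. Rps27-209 went from 2.25 and 2.32 TPM to 589 and 597 TPM, and from 0.570% and 0.610% to 95.3% and 95.4% of the gene. Both keep the first intron of a coding transcript, of 131 and 116 bases. In the opposite direction stood Uchl1-202, Atp5j-208, Grcc10-203 and Rps18-210, each at 94.9 TPM or more in both libraries of the first table and at 0 in the second.

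The name retained intron covers several structures. An intron of a protein_coding transcript of the gene lay whole inside an exon for 1959 of the 5766 transcripts, 34.0%, and 680 of these kept at least 2. The most in 1 transcript was 18. Another 3760, 65.2%, kept no whole intron but began or ended inside one, 746 of them at both ends, and 47 did neither. Among the 15655 retained_intron transcripts under the minimum, 28.9% kept a whole intron and 70.4% had an end inside one, so the make-up was similar.

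The median transcript was 849.5 bases long, with 307 bases inside introns and outside every coding exon. Fewer than 100 such bases were present in 962 transcripts, 16.7%. Transcripts with a whole intron were longer, with a median of 1582 bases against 756.5 for those with an end inside an intron, and lay within 2-fold between the tables more often, 81.1% against 66.8%. Their share of the gene was a median of 7.20% in the first table and 6.63% in the second, and for the others 7.65% and 5.43%. In 651 transcripts, 11.3%, an exon overlaps an exon of another gene on the opposite strand, and in 218, 3.78%, on the same strand, where reads of both genes can be mixed.

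The kept introns were short. The 2984 different introns of at least 50 bases kept by expressed retained-intron transcripts, in 1425 genes, had a median length of 249 bases, with quartiles at 115 and 614. The 5659 kept by transcripts under the minimum had a median of 299 bases. The 19499 other introns of the same 1425 genes had a median of 730 bases. At most 300 bases were measured for 56.2% of the introns kept in expressed transcripts, 50% of those kept in the others and 30.9% of the other introns. No test is given, since introns of a gene are not independent, and which introns are annotated as kept may itself depend on their length.

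**Figure D4:**
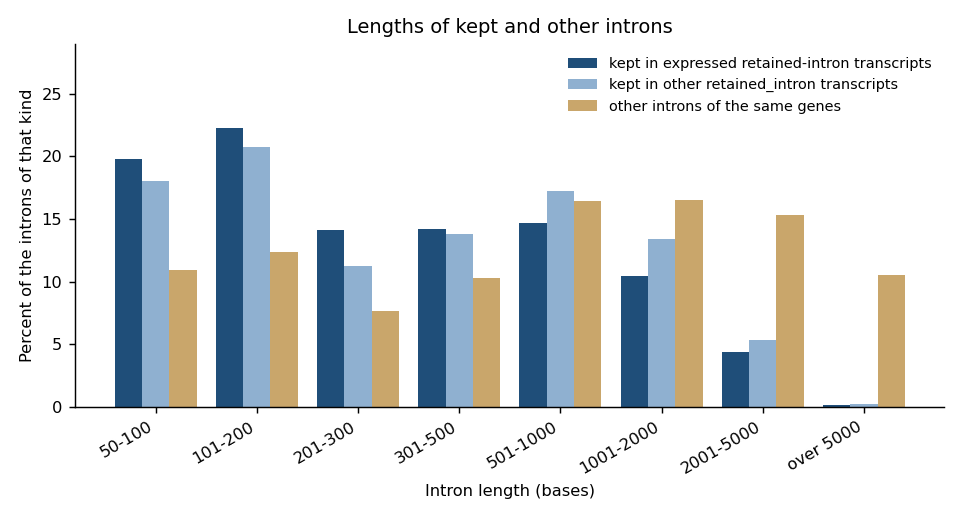
Percent of introns in each length class, for 2984 introns kept in expressed retained-intron transcripts (dark blue), 5659 kept in retained_intron transcripts under the minimum (light blue) and 19499 other introns of the same genes (tan). The dark bars are tallest at 101 to 200 bases with 22.3%, and the tan bars at 1001 to 2000 bases with 16.5%.

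In sequence, the ends of introns kept in expressed transcripts were close to those of introns kept under the minimum. The other introns of the same genes were not read for sequence. The first and last pairs of bases were GT and AG in 97.9% of the 2984, and in 98.4% of the 5659 kept by transcripts under the minimum. Base 5 was G, as in a strong 5′ splice site, in 78.7% and 76.4%. From 20 to 4 bases before the intron end, a median of 76.5% of bases were C or T in both sets. G or C made up a median of 53.1% of the intron in the expressed set and 50.3% in the other, and 55.0% and 53.0% of the 50 exon bases on either side.

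Most kept introns would interrupt the protein. Of the 2984, 91.9% lie between coding exons, 6.74% before the coding sequence and 1.37% after it. Of the 2742 between coding exons, 89.3% hold a stop codon in the frame of the upstream exon, and the stop begins at a median of base 38. In 216, 7.88%, there is no stop but the frame shifts, and in 78, 2.84%, as in Hdac5-211, the length is a multiple of 3 and the frame is kept. The same shares for introns kept under the minimum were 88.9%, 8.01% and 3.10%. First introns of a transcript made up 11.8% of the kept ones and 13.3% of the other introns of the same genes, and last introns 9.15% and 9.44%.

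Retained-intron transcripts can carry other genes. In 29 of the 5766 transcripts an exon spans a snoRNA or scaRNA gene, 0.503%, against 34 of 15655, 0.217%, under the minimum. snoRNAs guide chemical modification of ribosomal RNA and are made from introns of genes for ribosomal proteins and translation factors. Rplp2-205 spans Snora52, keeps no whole intron and stood at 23.1 and 20.3 TPM. Its mean share of the gene was 9.6% in the first table and 3.5% in the second. Hspa8-208, from the gene of a chaperone, spans Snord14c, Snord14d and Snord14e at 4.55 and 4.46 TPM. Taf1d-203 spans several snoRNA genes at 2.30 and 1.87 TPM, or 16.2% of its gene. Reads from the snoRNA itself and from the host transcript cannot be told apart here.

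An expressed retained-intron transcript was found in 3359 of 7393 genes, 45.4%, that had a retained_intron transcript in the annotation and at least 1 TPM in both libraries. The share of genes rose with the level of the gene, from 4.98% of genes at 1 to 5 TPM over 43.0% at 10 to 20 TPM to 86.6% at 100 TPM or more, as a fixed minimum of 1 TPM implies. The list counts that follow therefore stand beside the level of their genes. They too are out of genes with a retained_intron transcript in the annotation, for example 15 of 35 glutamate and GABA receptor genes. Shares over all genes of a level are over the 7393. Of the 3359 genes, 1970 had 1 such transcript, 799 had 2 and 590 had at least 3.

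Splicing regulators, the SR proteins and related factors that choose splice sites together with the kinases that control them, had such a transcript in 40 of 50 genes, 80.0%. The median level of these 50 genes was 51.8 TPM, and in genes of 50 to 100 TPM the share was 75.7%. Their 111 transcripts held a median of 7.61% of the gene, beside 7.50% over all 5766, which were not matched for gene level. The CLK kinases, which phosphorylate SR proteins, gave large sums in all 4 genes. In Clk4, 6 transcripts held 57.8% and 60.8% of the gene in the first table and 62.8% and 58.0% in the second. In Clk1, 5 held 43.5% and 39.3%, then 48.1% and 40.5%. In Clk3, 4 held 54.8% and 52.2%, then 40.7% and 35.3%, and in Clk2, 3 held 44.3% and 35.7%, then 31.1% and 25.8%.

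Among the SR proteins, 6 transcripts of Srsf11 held 63.4% and 57.9% of the gene, then 50.1% and 46.0% in the second table. Srsf5-212, which keeps intron 6 of 8, 1229 bases long, stood at 30.5 and 24.9 TPM. That was 25.3% and 23.3% of the gene, and 22.0% and 22.8% in the second table, although none of its 31-base words is its own. Srsf2-203 keeps introns after the coding sequence and held 28.9% and 24.1%, then 26.3% and 21.3%. For Srsf5-212 and Srsf2-203 the tables lay about as close as the libraries. Srsf2-203 overlaps an exon on the opposite strand. Tia1, an RNA-binding protein of splicing and stress granules, had 8 such transcripts with 50.4% and 52.8%, then 52.5% and 53.3%.

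Spliceosome and hnRNP genes had such a transcript in 31 of 44 genes, 70.5%, at a median gene level of 39.7 TPM. Of all genes at 20 to 50 TPM, 62.4% had one. Snrnp70, the U1 snRNP protein that binds the 5′ splice site complex, had 8 with 56.8% and 54.2% of the gene, then 41.2% and 36.3%. The highest, Snrnp70-216, stood at 32.3 and 28.2 TPM. Hnrnpl had 5 with 25.1% and 24.2%, then 24.999% and 24.7%, and Sf3b1, a core protein of branch point recognition, had 2 with 25.1% and 26%, then 29.1% and 31.8%. Hnrnpk had 7 with 21.8% and 22.7% in the first table and 4.56% and 4.67% in the second, a gap between tables larger than that between libraries.

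**Figure D5:**
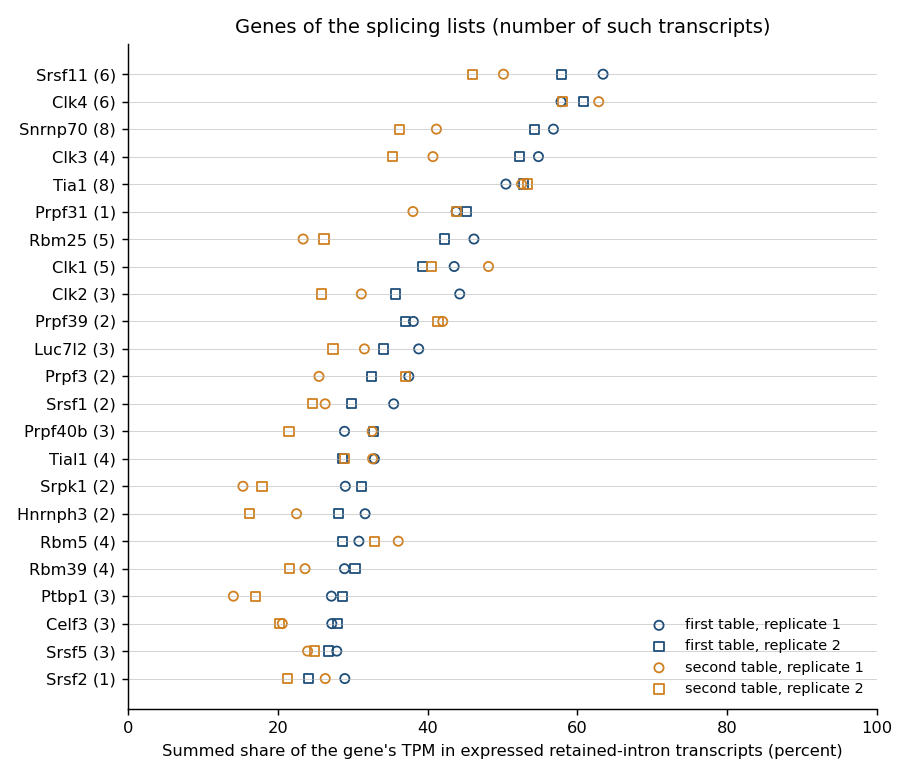
Summed share of gene TPM held by expressed retained-intron transcripts in 23 of the 24 genes of the splicing regulator and spliceosome lists with the highest mean share, with the number of such transcripts in brackets. Circles are replicate 1 and squares replicate 2, blue the first table and orange the second. In genes such as Clk4, Tia1 and Prpf39 the 4 values lie together, while in Rbm25 the tables stand apart.

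Genes of RNA decay and export had such a transcript in 16 of 23, 69.6%, at a median gene level of 20.3 TPM, beside the 62.4% of all genes at 20 to 50 TPM. In Thoc1, of the TREX complex that links transcription to export, 5 transcripts held 84.1% and 84.2% of the gene, then 67.5% and 72.7%. Ythdf2-202, from the gene of a reader of methylated adenosine in RNA, keeps a 443-base intron with 73.8% G or C, and held 43.0% and 49.96%, then 49.6% and 52.1%. Rbm8a-204, from the gene of a core protein of the exon junction complex, held 37.7% and 33.0%, then 56.0% and 58.2%. The exon junction complex marks spliced junctions and takes part in nonsense-mediated decay.

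In 4 lists of neuronal genes the median share lay between 2.05% and 5%, beside 7.50% over all 5766 transcripts. Other lists were as low, with 1.03% for myelin and glial genes and 3.38% for kinases and phosphatases, and spliceosome and hnRNP genes had 5.79%. A minimum of 1 TPM is a smaller share of a gene of higher level. Median shares were not compared at like gene level, so they are not read as traits of a list. Of the glutamate and GABA receptor genes with an annotated retained_intron transcript, 11 of 15, 73.3%, had an expressed one, with a median share of 4.47%. Synaptic vesicle genes, counted in the same way, had one in 17 of 24, 70.8%, with 2.05%. Postsynaptic scaffold genes had one in 25 of 28, 89.3%, with 2.19%, and voltage-gated channel genes in 20 of 25, 80.0%, with 5%. The median gene levels of these lists were 63.3, 166, 91.0 and 38.7 TPM. Over all genes the share was 62.4% at 20 to 50 TPM, where the median channel gene falls, 75.7% at 50 to 100 TPM and 86.6% at 100 TPM or more.

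Gria2, the AMPA receptor subunit that limits calcium entry, had 4 such transcripts that together held 29.3% and 26.97% of the gene, then 24.7% and 22.6%. Gria2-208 stood at 28.6 and 31.01 TPM, Gria2-206 at 27.8 and 21.7 TPM and Gria2-204 at 15.1 and 12.7 TPM. Gria2-204 has 2689 intronic bases and 1964 own words, and the tables gave it 5.65% and 4.80%, then 5.63% and 4.84%. Grin2a-204, from the gene of an NMDA receptor subunit, is a single exon of 3906 bases that keeps introns 1 and 2, which lie before the coding sequence. It stood at 16.0 and 15.4 TPM, 11.5% and 11.4% of the gene, then 10.1% and 9.67%.

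Slc17a7-203, from the gene of the main vesicular glutamate transporter of hippocampal excitatory neurons, is a single exon of 2346 bases that keeps 7 annotated introns whole, intron 2 in 2 lengths. It stood at 17.0 and 15.5 TPM in the first table and 23.4 and 20.3 TPM in the second. Because the gene itself stood at 553 and 605 TPM, this was 3.07% and 2.57% of it. Among channels, Cacna1e-206, from the gene of an R-type calcium channel, keeps intron 10 of 46 and held 14.9% and 13.7%, then 10.2% and 9.26%. Nlgn1-204, from the gene of the adhesion protein neuroligin-1, held 22.9% and 19.6%, then 25.5% and 23.3%. It overlaps an exon on the opposite strand. For Cacna1e-206 the second table was lower in both libraries.

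Of the remaining lists, chromatin genes had such a transcript in 26 of 40, 65.0%, kinases and phosphatases in 28 of 33, 84.8%, and myelin and glial genes in 9 of 16, 56.3%. Respiratory chain genes had one in 21 of 27, 77.8%, and cytosolic ribosomal protein genes in 52 of 60, 86.7%. Median gene levels were 30.7, 54.0, 140, 144 and 189 TPM. The shares over all genes of those levels were 62.4% for the class of the chromatin list, 75.7% for that of the kinases and phosphatases, and 86.6% for that of the other 3 lists. Respiratory chain and ribosomal protein genes had median shares of 1.63% and 1.55% of the gene, again not compared at like gene level. Of their transcripts, 48.8% and 48.9% lay within 2-fold between the tables, beside 72.3% over all transcripts. In splicing regulators 75.7% did and in channels 82.9%. Hdac5-211, with the intron printed above, has no own words and held 18.3% and 19.1% of its histone deacetylase gene in the first table and 0.243% and 0.384% in the second.

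Some genes had many such transcripts. Man2c1, from which a cytosolic mannosidase is made, had 10 of its 11 retained_intron transcripts expressed, between 1.59 and 5.47 TPM, and together they held 58.8% and 55.4% of the gene, then 50.8% and 51.1%. Aup1, a protein of lipid droplets and of protein removal from the endoplasmic reticulum, had 9 with 60.8% and 58.0%, then 31.3% and 49.4%. Ptprs, a receptor phosphatase of axons and synapses, had 9 with 17.3% and 15.5%, then 15.5% and 13.7%. Srrt had 8 with 53.4% and 53.6%, then 52.8% and 55.0%, and Safb had 8 with 53.2% and 57.1%, then 42.3% and 42.9%. Both encode nuclear RNA-binding proteins. Tsc2, the tumour suppressor that restrains mTOR, had 7 with 53.7% and 44.5%, then 48.8% and 41.6%. Sptan1, a spectrin of the neuronal membrane skeleton, had 8 that held 22.6% and 20.9%, then 10.97% and 9.36%. In Man2c1, Srrt and Ptprs the sums differed little between tables, although each was spread over many transcripts.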

How the data were processed

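Total RNA-seq libraries from hippocampal tissue were analysed, 1 group of 2. Per the labels, reads were mapped to mm10, and the deposited notes name GENCODE M21. Which quantification tools the authors ran is not given in the sources used here. The first table, made by the authors from transcriptome alignments, holds estimated counts (expected counts) and TPM per transcript. The authors deposited in it the percent of the gene's TPM that each transcript holds, the posterior SD of the count (treated here as a score), and credibility bounds of the TPM (treated as a signal, level not stated). The second table, made by the authors from the reads and an index, holds estimated counts and TPM.

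Tables were joined by transcript identifier, and 95 transcripts found only in the first were left out. Structure, intron sequences and 31-base words came from the GENCODE M21 annotation and transcript sequences. No genome was used, so introns found in no annotated transcript were not read and no splice-site score was computed. Comparison of tables used a scaling factor, the median ratio over all transcripts at the minimum. The computations used numpy 2.4.6, matplotlib 3.10.9 and pandas 2.3.3 under Python 3.11.15, and were tested on simulated data. No test between groups exists. Alternatives covered the TPM minimum, the table, the scaling, the pseudocount and leaving out each library.

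The transcripts and gene lists were chosen with earlier results of these data known. Named transcripts were the 20 highest by mean TPM, the 20 highest by mean share in genes of at least 5 TPM, up to 5 per list, those nearest the minimum, and the 5 largest ratios between tables and between libraries in each direction. Genes with at least 3 such transcripts were also drawn on. Transcripts with large shares in both tables, the snoRNA hosts and the sums of list genes were chosen after their values had been seen. Some transcripts and genes that this rule names are not reported here, though counts and medians include them.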

Additional observations from a re-analysis of the deposited data

How the results depend on the processing

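The number of transcripts and their median share depended on the TPM minimum. At a minimum of 0.5 TPM there were 9446 transcripts, with a median share of 5.68% and 12.04% per gene, 73.96% within 2-fold between the tables, 73.97% at 1 TPM in the second, and 769 at least 2-fold apart between libraries. At 2 TPM the values were 2853, 10.1% (10.125), 16.25%, 67.9%, 83.5% and 64. At 5 TPM they were 879, 17.8%, 22.66% and 60.4%, with 2 transcripts apart between libraries. With shares from the second table the medians were 5.83% and 11.3%, and 721 transcripts were at least 2-fold apart between libraries. Expected counts without length correction gave 3.32% and 6.28%, and a share of the transcript plus coding transcripts 10.4%. Tables lay within 2-fold for 63.2% without scaling, 68.2% on counts, 72.4% with a pseudocount of 0.1 and 76.8% with a pseudocount of 1, which left 63 apart between libraries. The cause of each change was not tested. Leaving out each library in turn gave 6652 to 7230 transcripts, a median share of 6.87% to 7.07% (6.865 and 7.065), 68.6% to 70.6% within 2-fold and 83.1% to 84.9% at 1 TPM in the second table. The count of transcripts apart between libraries has no such value. No paired analysis was possible because there is 1 group.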
